A study of Mus musculus with 19 samples.

Results

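The genes described are 10 of the 54179 genes of the count table, all 10 among its 21964 protein-coding genes, and belong to the squamous epithelial programme: Trp63, Zfp750, Rhov, Perp, Sfn, Grhl3, Klf5, Cebpb, Dsp and Jup. They were chosen by name as known genes of stratified epithelium, to which some genes were added because they were seen to be high in Krt5-rich cells at E12.5, so the members were in part selected on the readout analysed here. Single EPCAM+PLET1+ cells were sorted from the thymic primordia of wild type mouse embryos at E10.5 and E12.5 into 96-well plates. The labels give 4 plates per stage in the table of counts (letters a to d for E10.5, letters a, c, d and e for E12.5), a plate b at E12.5 described separately, and no treatment, no mutant allele and no strain. In the table, 711 cells passed the limits of the methods, 356 at E10.5 and 355 at E12.5, and the plate was the replicate; nothing in the labels says which embryos were pooled for a plate, so p-values measure the spread between plates, which may be technical.

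Squamous epithelia such as the epidermis, oral lining and oesophagus are layers of keratinocytes in which a basal layer, marked by keratins 5 and 14, gives rise to flattened, cross-linked outer layers. The transcription factor p63, encoded by Trp63, is the master regulator of the basal layer, and the thymic epithelium, which derives from pharyngeal endoderm, depends on it as well. Cells of the thymic medulla express keratin 5, and so share part of this programme with the skin.

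Per plate, the cells that passed had between 11674156 and 14363255 reads on protein-coding genes for E10.5 and between 14599988 and 17545016 for E12.5, with 250144 to 936219 and 357790 to 970307 molecules. Foxn1, Prss16, Ccl25 and Psmb11, the defining genes of thymic epithelium, summed to 8.8 to 31.8 CPM (reads of a gene scaled to the usual CPM total of protein-coding reads, over the cells of a plate) per plate at E10.5 and to 5159 to 5814 CPM at E12.5. At E10.5, 137 of 356 cells carried at least 3 of 9 neural markers at 10 CPM or more. At E12.5, 128 of 355 cells carried at least 2 of 4 parathyroid markers, and this class is approximate: a read of Pth, the parathyroid hormone gene, was found in 54.6% of the 227 cells outside it, but a molecule in 0.881%. Within the class the shares were 99.2% for a read and 34.4% for a molecule. Whether reads crossed between wells was not tested, and shares of cells are given for molecules as well as for reads. All 96 well barcodes were the same in all 9 plates.

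The genes Sfn, Rhov, Dsp and Jup are shown with the 250 bases before their RefSeq start. They represent the largest change between the stages (Sfn), a gene whose E12.5 reads lay mostly in Krt5-rich cells (Rhov) and the plaque proteins of the desmosome (Dsp and Jup). By the GENCODE positions given below, the Rhov window reaches into Rhov, and the Jup window stops short of Jup. In RefSeq (GRCm38.p6) these windows lie at chr4:133602169-133602418 (minus strand), chr2:119271227-119271476 (minus strand), chr13:38151044-38151293 (plus strand) and chr11:100397791-100398040 (minus strand), and they read 5′ to 3′ with the letters CCNCNCCC of the KLF motif, on either strand, in capitals:
Sfn: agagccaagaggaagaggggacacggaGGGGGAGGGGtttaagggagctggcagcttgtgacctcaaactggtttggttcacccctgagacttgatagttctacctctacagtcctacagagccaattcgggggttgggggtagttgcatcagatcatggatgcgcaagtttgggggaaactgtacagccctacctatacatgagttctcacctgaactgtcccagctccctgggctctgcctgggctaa
Rhov: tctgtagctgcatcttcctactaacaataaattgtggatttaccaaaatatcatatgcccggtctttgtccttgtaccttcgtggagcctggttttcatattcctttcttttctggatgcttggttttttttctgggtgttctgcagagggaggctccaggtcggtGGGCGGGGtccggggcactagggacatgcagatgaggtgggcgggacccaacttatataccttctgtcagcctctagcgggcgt
Dsp: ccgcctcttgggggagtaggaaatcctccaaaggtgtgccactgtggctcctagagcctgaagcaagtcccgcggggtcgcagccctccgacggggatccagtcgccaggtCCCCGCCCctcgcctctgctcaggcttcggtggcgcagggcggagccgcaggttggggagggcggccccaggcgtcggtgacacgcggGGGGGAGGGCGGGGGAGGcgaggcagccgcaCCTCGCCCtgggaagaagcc
Jup: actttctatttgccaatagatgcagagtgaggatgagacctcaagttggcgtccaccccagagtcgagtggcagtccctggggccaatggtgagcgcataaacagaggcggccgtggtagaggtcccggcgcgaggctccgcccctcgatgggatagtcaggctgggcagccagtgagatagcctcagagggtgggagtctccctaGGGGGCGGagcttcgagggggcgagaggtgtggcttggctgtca

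The KLF letters were in all 6 member windows that RefSeq lists here (Rhov, Sfn, Grhl3, Cebpb, Dsp and Jup) and in 45.6% of the 27025 gene windows of the same length. Their match is a description of base content as much as of a motif, since the G and C share of the 6 windows ran from 50.0% in Rhov to 81.6% in Cebpb. Matches overlap each other in Sfn, Cebpb, Grhl3 and Dsp. The GRHL letters AACCGGTT (0.122% of all windows), the C/EBP letters TTGCNNAA (9.55%) and the AP-1 letters TGANTCA (6.87%) were in 0 of the 6 windows. No window was found for Trp63, Zfp750, Perp or Klf5.

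Of the 10 genes, 7 were higher at E12.5 than at E10.5 in edgeR's quasi-likelihood test over all protein-coding genes (adjusted p under 0.05): the regulators Trp63, Klf5 and Zfp750, the desmosome genes Dsp, Jup and Perp, and Sfn. Over all 11499 genes tested, 3.8% were called higher and 2.44% lower. Rhov and Cebpb missed the threshold and Grhl3 was removed by the filter on low counts. Because some of the 10 were picked for their E12.5 level, the count is not independent evidence that the programme as a whole rose. Plates of the stages did not overlap for 9 of the 10, all but Grhl3, against 8.11% of all tested genes that were higher and 6.67% that were lower without overlap. Shares of cells with a read did not overlap for 7 of the 10 (6.04% of all tested genes higher in this way) and for 9 with each cell thinned to 40000 reads (6.36%). Shares with a molecule did not overlap for 6 (5.78%) and for 8 with cells thinned to 1000 molecules (8.17%). Cells below 1000 molecules were left out of the last measure, which kept 63 of the 88 cells of E10.5 plate a. More cells with a transcript and more RNA per cell cannot be told apart in sums over plates, so shares of cells are given beside the levels.

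**Figure D1:**
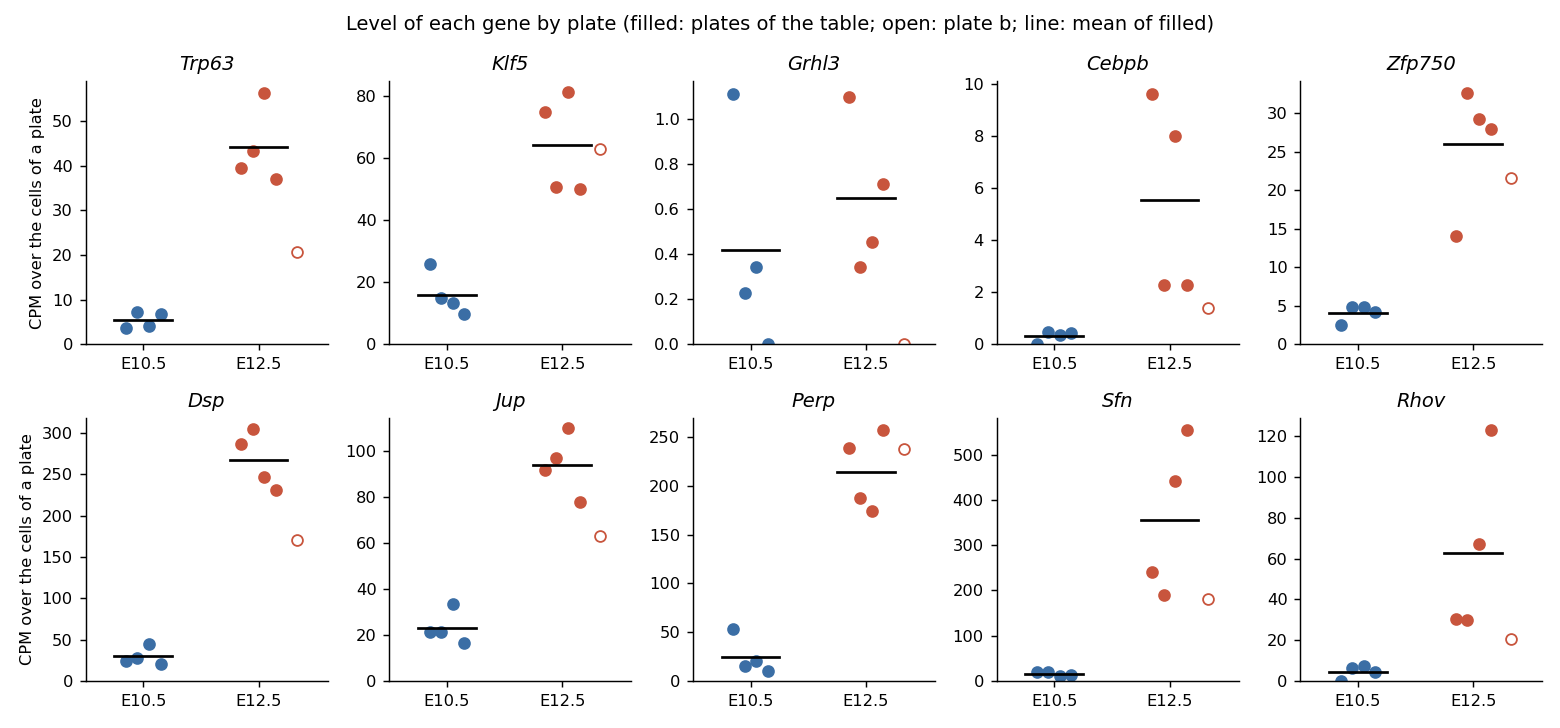
CPM of each gene summed over the cells of a plate (y axis, linear from 0, a separate scale for each gene) at E10.5 and E12.5 (x axis). Filled points are the 4 plates per stage of the table, the line is their mean and the open point is E12.5 plate b; for Sfn the E12.5 plates lie between 190 and 554 CPM and the E10.5 plates between 10.7 and 19.6 CPM.

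Trp63 (chr16:25683763-25892102, plus strand), which sets up and maintains the basal state, was at 3.66, 7.17, 4.03 and 6.75 CPM in plates a to d at E10.5 and at 39.5, 43.4, 56.3 and 37.1 CPM in the E12.5 plates, in letter order. Every E12.5 plate was above every E10.5 plate, and the gene was 7.57-fold higher (log2 change 2.92 ± 0.46 SE, adjusted p = 0.00304, edgeR, n = 4 plates per stage). A molecule of Trp63 was counted in 11 of 356 cells at E10.5 (3.09%, exact binomial interval 1.55% to 5.46%) and in 66 of 355 at E12.5 (18.6%, 14.7% to 23.0%). A read was found in 42.5% of the E12.5 cells, so most cells with a Trp63 read had no corrected molecule in the first run. Without the cells that carry neural or parathyroid markers, Trp63 kept its direction and missed the threshold (log2 change 2.41, adjusted p = 0.11, edgeR). At E12.5 this fit kept 25, 43, 44 and 42 cells of plates a, c, d and e. The neural rule is approximate at E12.5, where its markers Stmn2 and Isl1 were read in 85.4% and 44.8% of cells. The part of other cell types in the lost call was not tested. Of the relatives of Trp63 in the p53 family, Trp53 was at 94.3 ± 27.4 and 86.8 ± 37.6 CPM (mean ± SD, n = 4) and Trp73 at 0.264 ± 0.528 and 1.53 ± 2.11 CPM at E10.5 and E12.5, and neither was called.

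Klf5 (chr14:99298691-99315036, plus strand), a zinc finger factor of proliferating epithelial layers, was at 25.9, 15.01, 13.2 and 9.68 CPM at E10.5 and at 74.8, 50.7, 81.2 and 50.1 CPM at E12.5. The plates did not overlap and the log2 change was 1.99 ± 0.37 (adjusted p = 0.00735, edgeR). It lost its call without marker-bearing cells (log2 change 1.76, adjusted p = 0.0785, edgeR). This is the fit described for Trp63, with fewer E12.5 cells and an approximate neural rule at E12.5. Klf2, Klf3, Klf4 and Klf6 were not called, with log2 changes of 3.63 ± 1.74, 1.48 ± 0.62, 1.59 ± 0.72 and 1.12 ± 0.47.

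Zfp750 (chr11:121510978-121519333, minus strand), a p63 target that drives terminal differentiation of keratinocytes, was at 2.47, 4.83, 4.80 and 4.18 CPM at E10.5 and at 14.01, 32.7, 29.2 and 27.9 CPM at E12.5. Plate a was the lowest at E12.5 and still above all E10.5 plates (log2 change 2.59 ± 0.56, adjusted p = 0.0171, edgeR). Molecules were found in 2.53% of E10.5 cells (1.16% to 4.74%) and in 9.58% of E12.5 cells (6.72% to 13.1%). The call did not survive leaving out E12.5 plate d (adjusted p = 0.0505, edgeR) or E12.5 plate e (adjusted p = 0.0554, edgeR).

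Cebpb and Grhl3, regulators that act later in keratinocyte differentiation and in the epidermal barrier, were scarce. Cebpb (chr2:167688915-167690418, plus strand) had 0, 6, 4 and 6 reads in the E10.5 plates and 158, 33, 140 and 35 reads in the E12.5 plates, which is 0.303 ± 0.207 and 5.53 ± 3.84 CPM (SD, n = 4). Its plates did not overlap, but the adjusted p was 0.119 (edgeR, log2 change 3.97 ± 1.32). An exon of Tmem189 on the opposite strand shares bases with Cebpb in GENCODE vM21, and whether reads were counted by strand is not given in the sources used here. Grhl3 (chr4:135541888-135573630, minus strand) had 21 reads at E10.5 and 42 at E12.5 over all plates and its plates overlapped, with 0.421 ± 0.483 and 0.651 ± 0.334 CPM. Its relatives Grhl1 (log2 change 3.78 ± 1.84) and Grhl2 (0.78 ± 0.61) were not called, nor were Cebpa, Cebpd and Cebpg.

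The 3 desmosome genes among the members were all called higher. Desmosomes rivet neighbouring epithelial cells together; desmoplakin (Dsp) ties their plaque to keratin filaments, plakoglobin (Jup) links the cadherins to desmoplakin, and PERP is a membrane protein of the junction and a p63 target. Dsp (chr13:38151294-38198577, plus strand) was at 24.3, 28.0, 45.2 and 20.9 CPM at E10.5 and at 286, 304, 247 and 231 CPM at E12.5, so the stages were far apart and the E12.5 plates close together (log2 change 3.10 ± 0.29, adjusted p = 6.93e-05, edgeR). A molecule was counted in 12.1% of cells (8.88% to 15.9%) at E10.5 and in 42.0% (36.8% to 47.3%) at E12.5. Jup (chr11:100368958-100397763, minus strand) was at 21.4, 21.2, 33.2 and 16.6 CPM and then at 91.9, 96.9, 110 and 77.6 CPM (log2 change 1.96 ± 0.31, adjusted p = 0.00306, edgeR).

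Over all E10.5 cells Jup was the member most widely detected, with a read in 34.8% and a molecule in 22.2%. A Jup read was found in 13.6% to 46.2% of the cells of an E10.5 plate and in 37.8% to 74.2% at E12.5. These shares overlapped although the levels did not. In E10.5 plate a Dsp was read in more cells (20.5%) than Jup (13.6%). The share of cells with a Jup molecule ran from 3.26% (plate d) to 39.6% (plate b) at E10.5. Perp (chr10:18845020-18857073, plus strand) was at 53.6, 15.01, 19.96 and 10.1 CPM at E10.5, highest in plate a, and at 239, 188, 174 and 258 CPM at E12.5, without overlap (log2 change 3.16 ± 0.43, adjusted p = 0.00127, edgeR). Its share of cells with a molecule was 6.18% (3.91% to 9.21%) and 44.2% (39.0% to 49.6%). The catenin Ctnnb1, the close relative of Jup at adherens junctions, was at 560 ± 289 and 651 ± 235 CPM and was not called (log2 change 0.18 ± 0.30). A transcript annotated on the opposite strand, Gm10129, shares exon bases with Dsp.

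Sfn (chr4:133600556-133602168, minus strand) encodes 14-3-3 sigma, the stratified-epithelium member of a family of phosphoprotein-binding adaptors. It had the largest change of the 7: 19.6, 19.0, 10.7 and 12.3 CPM at E10.5 and 241, 190, 441 and 554 CPM at E12.5 (23.2-fold, log2 change 4.54 ± 0.45, adjusted p = 0.000131, edgeR). The lowest E12.5 plate was well above the highest E10.5 plate, while plates d and e stood above a and c. Molecules were counted in 69 of 356 cells (19.4%, 15.4% to 23.9%) at E10.5 and in 280 of 355 (78.9%, 74.3% to 83.0%) at E12.5. None of the 6 other 14-3-3 genes (Ywhab, Ywhae, Ywhag, Ywhah, Ywhaq and Ywhaz) was called, with log2 changes from -0.43 to 0.39.

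Rhov (chr2:119269201-119271272, minus strand), an atypical small GTPase of the Cdc42 group, had 0, 83, 86 and 62 reads in the E10.5 plates, or 0 to 7.37 CPM. At E12.5 it was at 30.2, 29.7, 67.3 and 123 CPM, above every E10.5 plate but 4.14-fold apart between the lowest and the highest plate. The log2 change of 3.76 ± 1.04 missed the threshold (adjusted p = 0.0587, edgeR) and passed it in molecules (log2 change 2.93, adjusted p = 0.00704, edgeR) and without E10.5 plate a (adjusted p = 0.0125, edgeR). A molecule was counted in 5 of 356 cells at E10.5 and in 23 of 355 at E12.5 (6.48%, 4.15% to 9.56%), and 41.6% of its E12.5 reads came from 5 cells. Its relative Rhou was at 56.5 ± 24.7 and 48.3 ± 23.6 CPM and was not called.

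Cells with neural markers were set beside the other E10.5 cells; whether they lack squamous transcripts was not tested, and a molecule of the epithelial gene Cldn4 was counted in 18.2% of them. In the 137 E10.5 cells with neural markers (median 3754 molecules in the first run), a molecule was counted in 0.73% of cells for Trp63, 1.46% for Klf5, Cebpb, Perp and Rhov, 2.19% for Zfp750 and 0% for Grhl3, where 0 of 137 allows up to 2.19% of cells with a molecule and 1 cell had a read. The shares of Dsp (6.57%), Sfn (8.03%) and Jup (21.2%) were higher in the same cells. In the 219 other E10.5 cells (median 4005 molecules), Sfn was found in 26.5%, Dsp in 15.5%, Perp in 9.13%, Klf5 in 6.39% and Trp63 in 4.57%. The shares of Jup (22.8%), Zfp750 (2.74%), Rhov (1.37%) and Cebpb (1.37%) in these cells were close to those in cells with neural markers, and Grhl3 was found in 1.37%. The level in CPM was higher in cells without neural markers within all 4 plates for Trp63, Perp and Sfn. For Trp63 and Sfn the 2 classes did not overlap over plates (3.997 to 12.2 against 0 to 3.07 CPM, and 14.1 to 27.9 against 3.75 to 6.80 CPM), which held for 2.67% of the 11499 genes of the stage test in this direction. These are values without a test.

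The members were next described by the level of Krt5, the basal keratin that was itself 0.0795 to 6.41 CPM per plate at E10.5 and 302 to 693 CPM at E12.5. Of 355 E12.5 cells, 39 had at least 1000 CPM of Krt5 (9, 12, 8 and 10 in plates a, c, d and e) and are called Krt5-rich, 180 had a read below that and 136 had no read. The cut is a point on a range, with 44 cells between 500 and 2000 CPM. At E10.5, 0 of 356 cells reached it, which allows a share of up to 0.843%. Since some members were chosen for their level in these cells, the values that follow describe the choice and were not tested. Krt5-rich cells were also deeper, with a median of 3774 molecules in the first run against 2960 in the other E12.5 cells. The thymic Foxn1 programme was carried by 38 of the 39. The 4 parathyroid markers summed to 18.9 to 87.4 CPM per plate in Krt5-rich cells, with Gcm2 and Casr at 0, and to 3068 to 10053 CPM in the others. Of the 39 cells, 13 carried parathyroid and 6 neural markers by the rule above. The neural markers Tubb3, Elavl3, Elavl4 and Neurod1 were at 0 in Krt5-rich cells, and the sum of all 9 neural markers was 1414 to 2421 CPM against 1277 to 1664 CPM. Stmn2 and Nefm, which were read in both classes of every plate, made up most of this sum, with Stmn2 at 841 to 2237 normalised CPM in Krt5-rich cells against 553 to 914 in the others (not called, adjusted p = 0.153, edgeR) and Nefm at 239 to 698 against 430 to 762. The part of depth and of other cell types in the values was not tested.

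**Figure D2:**
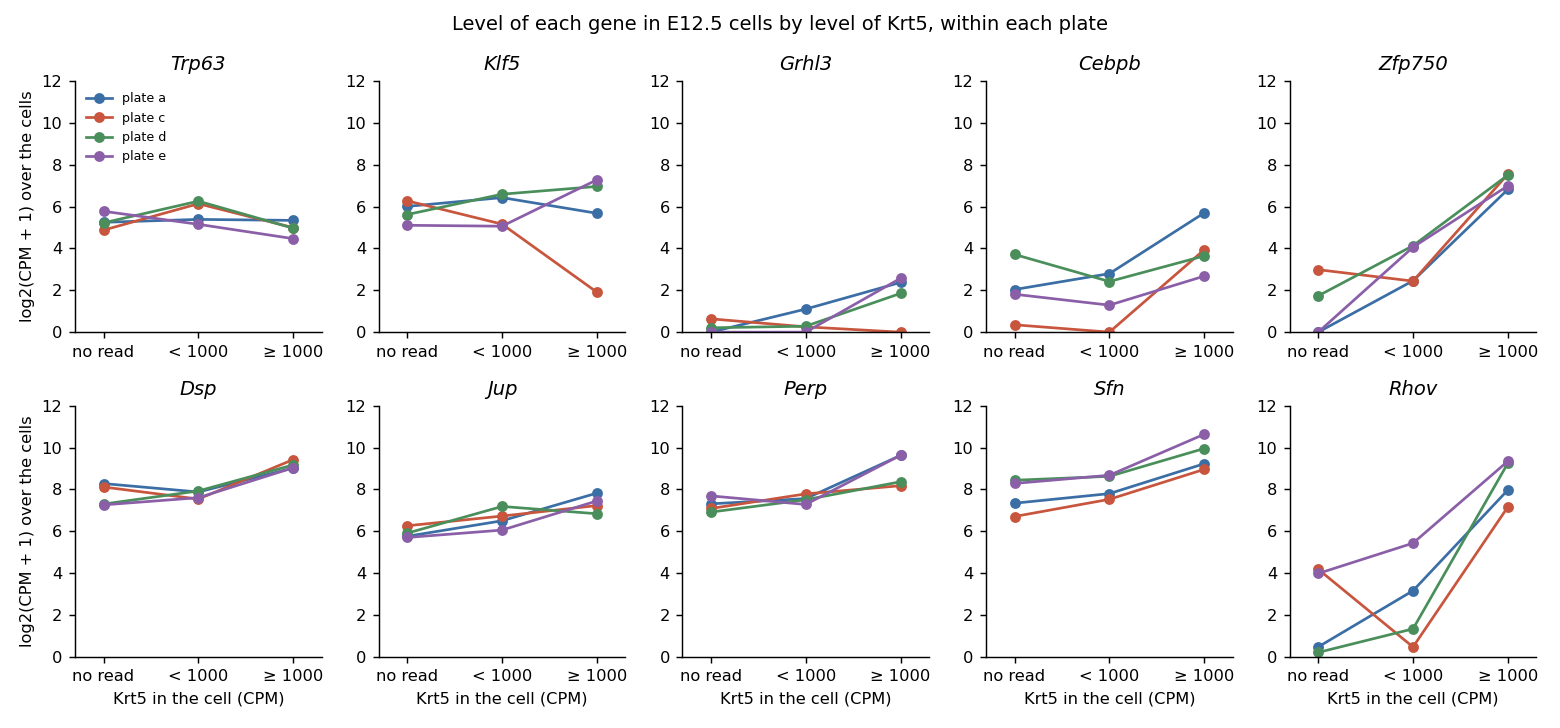
Level of each gene, as log2(CPM + 1) over the cells of a class (y axis), in E12.5 cells with no Krt5 read, with a Krt5 read below 1000 CPM and with 1000 CPM or more (x axis), 1 line per plate (a, c, d and e). Zfp750 and Rhov are highest in the Krt5-rich class of every plate, while Trp63 is below its higher other class in every plate and Klf5 differs between plates.

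Most cells with a molecule of Zfp750 (61.8%) or Rhov (78.3%) were Krt5-rich. Zfp750 was at 112, 186, 181 and 126 CPM in the Krt5-rich cells of plates a, c, d and e and at 2.92, 5.87, 10.7 and 11.45 CPM in the other cells of the same plates. Its molecules were found in 21 of 39 Krt5-rich cells (53.8%, 37.2% to 69.9%) and in 13 of 316 others (4.11%, 2.21% to 6.93%). Rhov was at 250, 142, 608 and 650 CPM against 5.29, 10.1, 0.96 and 34.7 CPM, with molecules in 18 of 39 (46.2%, 30.1% to 62.8%) and 5 of 316 (1.58%, 0.516% to 3.65%) cells. Krt5-rich cells were 10.99% of the E12.5 cells and held 12.46% of their reads, but 73.7% of the Zfp750 reads and 83.1% of the Rhov reads. The genes also went together: 13 cells had molecules of both, which is 38.2% of the cells with Zfp750 and 56.5% of those with Rhov.

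Dsp, Jup, Perp and Sfn were found by molecule in 42.0%, 42.3%, 44.2% and 78.9% of E12.5 cells and had higher levels in the Krt5-rich ones. Dsp was at 519, 686, 574 and 523 CPM in Krt5-rich cells and at 260, 238, 207 and 182 CPM in the others, and Jup at 225, 149, 113 and 174 CPM against 76.8, 87.9, 109 and 61.6 CPM. Perp was at 786, 288, 328 and 791 CPM against 177, 170, 156 and 168 CPM, and was most raised in plates a and e. Sfn was at 598, 495, 990 and 1586 CPM against 200, 137, 374 and 381 CPM. For each of these 4 genes, as for Zfp750 and Rhov, the classes did not overlap over plates, which held for 1.45% of all tested genes in this direction and for 9.7% in the other, and nothing is read from this count since the contrast chose members. Between 13.2% (Sfn) and 18.7% (Jup) of the cells with a molecule of these 4 genes were Krt5-rich, so most cells with a molecule were not.

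Trp63 differed from these genes. It was at 39.5, 30.9, 30.3 and 21.1 CPM in Krt5-rich cells and at 39.5, 45.5, 59.5 and 39.8 CPM in the others, so it was lower in Krt5-rich cells of plates c, d and e and nearly equal in plate a, where TMM-normalised sums were 36.8 CPM in Krt5-rich and 34.0 CPM in other cells. Molecules were found in 23.1% of Krt5-rich cells (11.1% to 39.3%) and in 18.0% of the others (13.96% to 22.7%). Klf5 was higher in Krt5-rich cells of 2 of 4 plates, at 50.3, 2.76, 124 and 154 CPM against 77.6, 59.1, 76.0 and 32.7 CPM. Cebpb was higher in all 4 plates, at 50.9, 14.3, 11.5 and 5.39 CPM against 4.95, 0.161, 7.55 and 1.73 CPM, with overlap. Grhl3 had 23 of its 42 E12.5 reads in Krt5-rich cells, and 4 of those 39 cells had a molecule.

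**Figure D3:**
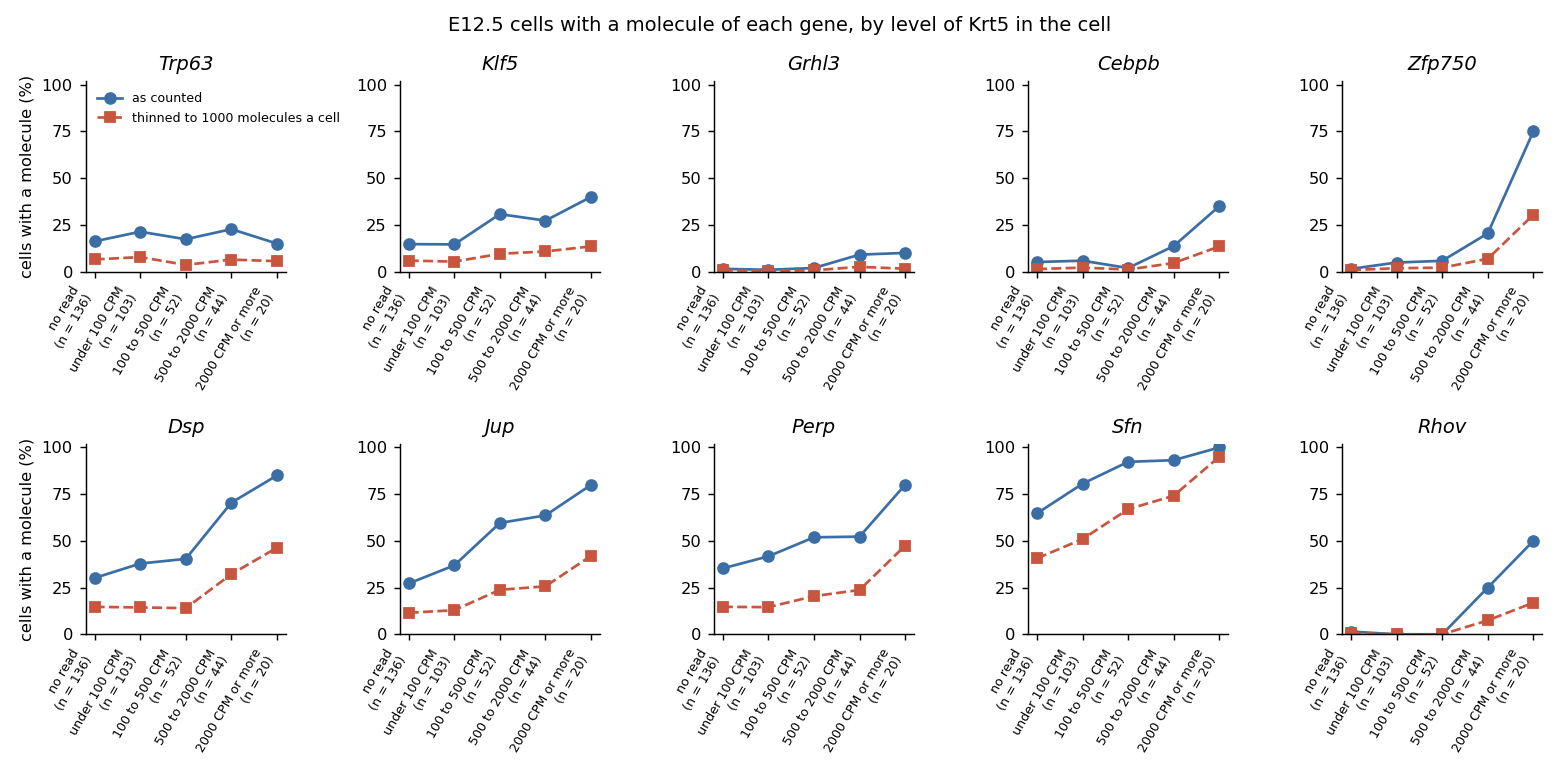
Share of E12.5 cells with a molecule of each gene (y axis, percent) by the level of Krt5 in the cell (x axis, with the number of cells), as counted in the first run and with each cell of at least 1000 molecules thinned to that number. For Rhov the thinned share is 0% at 100 to 500 CPM of Krt5 and 16.9% at 2000 CPM or more; for Trp63 it stays between 3.59% and 7.76%.

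Shares along Krt5 took different courses between genes once each cell of at least 1000 molecules was thinned to that number. The share of Sfn was higher at each level than at the one before, with 40.7% of cells without a Krt5 read and then 50.9%, 66.9%, 74.2% and 94.99% of the 20 cells at 2000 CPM or more. For Dsp the share was 14.7%, 14.4% and 13.99% up to 500 CPM, then 32.2% and 46.3%. Jup was found in 11.52%, 12.9%, 23.8%, 25.7% and 42.0%. Zfp750 stayed at 2.1% or less up to 500 CPM and reached 6.84% and 30.4%, and Rhov was at 0.581%, 0%, 0%, 7.43% and 16.9%. For Trp63 a read, as counted, was found in 29.4% of cells without a Krt5 read and in 50.5%, 50.0%, 50.0% and 55.0% at the higher levels. Thinned to 40000 reads per cell, these shares were 21.7%, 36.1%, 35.5%, 36.0% and 29.3%. Neighbouring steps rest on 20 to 136 cells (133 of the 136 had at least 1000 molecules) and were not tested.

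Per cell, a median of 5 of the 10 genes had a molecule in Krt5-rich cells (range 0 to 8), 3 in cells with a lower level of Krt5, 2 in cells without a Krt5 read and 1 in E10.5 cells without neural markers. At least 5 of the 10 were found in 25 of 39 Krt5-rich cells (64.1%), in 17 of 180 cells with less Krt5 (9.44%), in 7 of 136 without (5.15%) and in 0 of the 356 E10.5 cells, which allows a share of up to 0.843%. Some members were chosen for their level in Krt5-rich cells, so these counts describe the choice. The 3 E12.5 classes also differed in depth, with medians of 3774, 3339.5 and 2334.5 molecules in the first run. The same count was not made for other genes, and nothing was tested.

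Correlations with Krt5 over the 355 E12.5 cells, of log2(CPM + 10) centred on the plate, were highest for Rhov, Zfp750 and Sfn, whose order changes with the pseudocount (0.38, 0.42 and 0.39 with log2(CPM + 1)), and lowest for Trp63. Pearson's r was 0.46 for Rhov (0.24 to 0.61 within the 4 single plates of the table), 0.46 for Zfp750 (0.30 to 0.56) and 0.44 for Sfn (0.36 to 0.55), then 0.36 for Jup, 0.33 for Dsp, 0.26 for Perp, 0.25 for Cebpb, 0.22 for Grhl3 and 0.18 for Klf5. Within single plates r ran from 0.33 to 0.39 for Jup, 0.25 to 0.42 for Dsp and 0.04 to 0.38 for Perp. It ran from 0.14 to 0.43 for Cebpb, -0.02 to 0.32 for Grhl3 and -0.05 to 0.33 for Klf5. For Trp63 r was 0.02 (-0.08 to 0.10), and 0.09 with log2(CPM + 1). The points share libraries and depth, and the r of each gene with the number of genes detected in the cell lay between 0.01 (Trp63) and 0.17 (Jup). Among the 316 cells that were not Krt5-rich, r was 0.10 for Zfp750 and 0.11 for Rhov and 0.31 for Sfn, 0.27 for Jup and 0.23 for Dsp. In the same cells it was 0.16 for Klf5, 0.11 for Perp, 0.09 for Grhl3, 0.05 for Cebpb and 0.03 for Trp63. Krt17, a keratin of basal and stressed epithelium, had r = 0.48 and Cldn4, a tight junction claudin of medullary progenitors, 0.21.

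**Figure D4:**
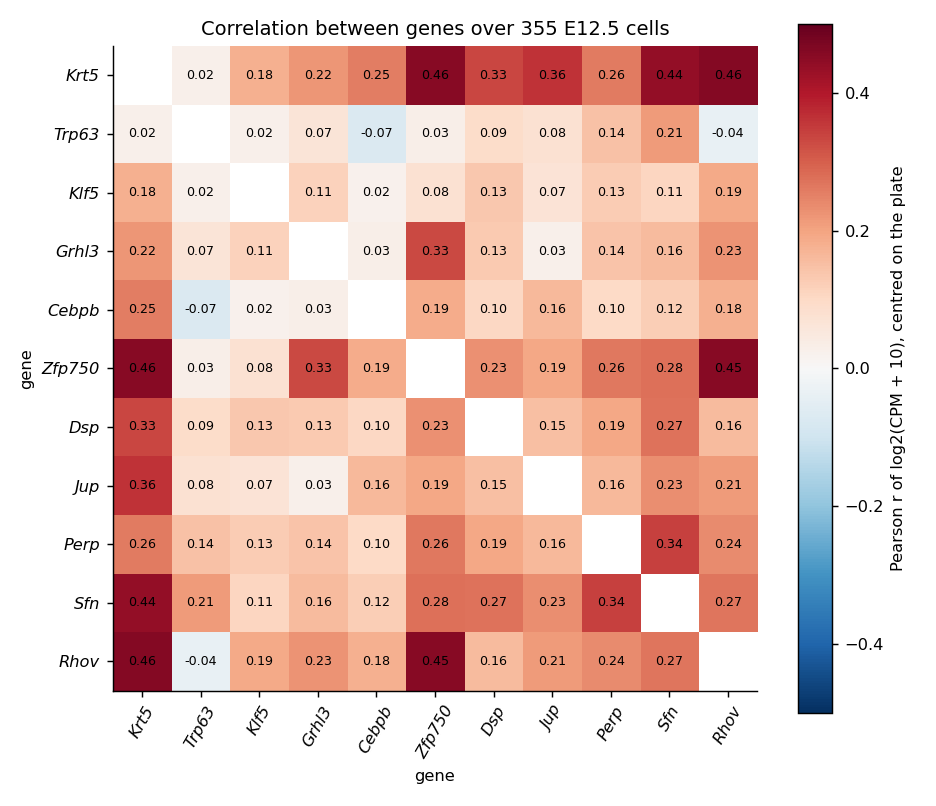
Pearson's r between the 10 genes and Krt5 over 355 E12.5 cells (rows and columns are genes; colour runs from blue at -0.5 to red at 0.5 and r is printed in each square). The pair Zfp750 and Rhov stands out among members at 0.45, and Trp63 is at 0.21 or below with every gene.

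Among the 45 pairs of members r ran from -0.07 (Trp63 with Cebpb) to 0.45 (Zfp750 with Rhov), with 0.34 for Perp with Sfn, 0.33 for Zfp750 with Grhl3 and 0.27 for Sfn with Dsp. Of 7199 genes read in at least 10% of the cells, Krt5 was the nearest to Rhov, Dsp and Jup and among the 3 nearest to Zfp750, Perp and Cebpb. Some members were chosen for their level in Krt5-rich cells of these data, so nothing is read from the rank of Krt5. Kcnj15, a potassium channel gene, was the nearest to Zfp750 (r = 0.46) and Cebpb (0.30) and the second to Rhov (0.46). Sfn was nearest to Krt8, the simple-epithelium keratin (0.59), then Stmn2 (0.50) and Prss16, a thymic protease of the cortex (0.49). Dsp was nearest, after Krt5 and Krt8, to Pkp1, a plakophilin of the same plaque (0.29). Trp63 was nearest to Il7, the thymic growth factor of lymphoid progenitors (0.27), Osbpl3 (0.23) and Isl1 (0.23), and Klf5 to Nfatc4 (0.26), Cdc42se1 (0.24) and Erich1 (0.21). Grhl3 was nearest to Pphln1 (0.36), then to Zfp750 and to Ovol1 (0.29). Perp was nearest to Sfn, and Jup to Clu (0.29) and Ddit4 (0.27) after Krt5.

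The members were then compared between the stages without the 39 Krt5-rich cells, a setting added after the data were seen. Some members were chosen for their level in the cells left out, so nothing is read from the lower values of Zfp750 and Rhov. In this fit 3.48% of 11392 genes were called higher and 2.24% lower. Of the 7 genes, 6 kept their call: Trp63 (log2 change 2.98, adjusted p = 0.00304, edgeR), Perp (2.79, adjusted p = 0.00218), Sfn (4.14, adjusted p = 0.00019), Klf5 (1.89, adjusted p = 0.0148), Dsp (2.82, adjusted p = 0.000163) and Jup (1.79, adjusted p = 0.00875). The log2 change was 0.88 for Zfp750 and 1.48 for Rhov. In the 136 cells without a Krt5 read (median 2334.5 molecules in the first run), Dsp was at 309, 276, 156 and 152 CPM, Sfn at 161, 103, 345 and 311 CPM and Perp at 158, 135, 120 and 205 CPM, above every E10.5 plate. Zfp750 was at 0, 6.92, 2.33 and 0 CPM in these cells, from which again nothing is read because of how members were chosen.

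Within E12.5, the CPM of Zfp750, Sfn, Grhl3 and Jup was higher in cells without parathyroid markers than in cells with them in all 4 plates. By the share of cells with a molecule, this held in 4 plates for Sfn and in 3 for Zfp750, Grhl3 and Jup. Grhl3 had only 42 reads at E12.5 (0.477 to 1.22 against 0 to 1.03 CPM). The share of all genes that were higher in all 4 plates was not counted. For Zfp750 alone among the members the classes did not overlap in this direction (27.4 to 44.5 against 0 to 17.3 CPM), as for 1.7% of the 11499 genes of the stage test. Klf5 was at 63.9 ± 20.6 CPM without and 67.1 ± 13.5 CPM with these markers (SD, n = 4), and Dsp at 284 ± 52.2 and 209 ± 75.1 CPM. The classes were uneven over plates a, c, d and e, with 33, 51, 68 and 75 cells without these markers and 58, 39, 17 and 14 with them. They also differ in depth, with a median of 3438 and 2470 molecules, and the comparison was not tested.

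Other genes of stratified epithelium changed in part, in lists chosen by function with earlier results of these data known. Of 13 desmosome partners, 8 were tested and 3 were higher at E12.5: the plakophilin Pkp1, the desmocollin Dsc2 (log2 change 4.19 ± 0.84, adjusted p = 0.0123, edgeR) and the desmoglein Dsg2 (1.66 ± 0.39, adjusted p = 0.0279, edgeR). Pkp1 had 2 reads over all E10.5 plates and 4053 at E12.5, where it was read in 59 of 355 cells. Dsg1a and Dsc1, cadherins of the outer epidermis named after their values were seen, had no normalised CPM above 0 at either stage. The plakins Ppl (log2 change 0.35 ± 0.81) and Evpl (0.29 ± 0.997) were not called. The median of the tested partners was 1.12, beside 0.0013 over all genes tested. The desmosomal calls are least stable for Dsg2, which loses its call without E10.5 plate b or c, without E12.5 plate a, d or e (adjusted p from 0.0594 to 0.0886, edgeR), and without the marker-bearing or the Krt5-rich cells.

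Of 18 basal keratinocyte and hemidesmosome genes, 16 were tested and 5 were higher at E12.5, 0 lower. Lama3 and Lamb3 encode chains of laminin 332, the anchor of basal cells. Lama3 had 0 reads at E10.5 and 478 at E12.5, at least 129-fold higher over a floor of 3 reads in the group, and Lamb3 had 1 and 1414 reads. Krt14, the partner of keratin 5, had 0 reads at E10.5 and 298 reads in 9 of 355 cells at E12.5 (at least 80.4-fold), and its call (adjusted p = 0.0308, edgeR) was lost in 7 of the 8 fits that each left out a plate, all but that without E10.5 plate a (adjusted p from 0.0505 to 0.079, edgeR). Krt17 was at 1.79 ± 3.06 and 121 ± 66.3 CPM (log2 change 6.14 ± 1.07, adjusted p = 0.00558, edgeR), and Fgfr2, a receptor for epithelial growth factors, changed by 3.29 ± 0.75 (adjusted p = 0.0227, edgeR). Fgfr2, the fifth by size and named after its value was seen, lost its call without E10.5 plate c or d or E12.5 plate a (adjusted p from 0.0605 to 0.0702, edgeR).

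Of 24 squamous regulators, 20 were tested, with a median log2 change of 0.80. Tfap2a and Tfap2b, factors of surface ectoderm named after their values were seen, were at 23.0 ± 20.7 and 15.9 ± 7.53 normalised CPM at E10.5 and at 0.0767 ± 0.118 and 0.36 ± 0.685 at E12.5; the first was not tested and the second had an adjusted p of 0.0536 (edgeR). Of 31 suprabasal and cornified envelope genes only 9 were abundant enough to test. Krtdap (1 read at E10.5 and 1827 in 17 cells at E12.5) and S100a14 (14 and 2654 reads) were higher and Krt7, a keratin of simple and glandular epithelium, was lower (log2 change -1.65 ± 0.38, adjusted p = 0.0228, edgeR). Krtdap was uneven between plates: its Krt5-rich cells were at 612 normalised CPM in E12.5 plate e and at 35.1, 70.4 and 0 in plates a, c and d. S100a14 lost its call without E12.5 plate c (adjusted p = 0.0598, edgeR) and without the Krt5-rich cells (adjusted p = 0.0524). Krt7 lost it without E10.5 plate b or d or E12.5 plate a, c or d (adjusted p from 0.0512 to 0.0742, edgeR) and without marker-bearing cells (adjusted p = 0.0761). Krt13, Krt6b, Krt16, Sprr1b, Sprr2a3, Tgm3 and Aldh3a1, again named after their values were seen, were at 0 in all plates. Of the untested genes with reads, Krt6a was at 0 in every E10.5 plate and at 0.219 to 1.86 normalised CPM at E12.5. Sprr1a was at 51.6 normalised CPM in E12.5 plate e and at 0 in the other E12.5 plates, and Sbsn at 0 to 10.3 at E12.5 and at most 0.0863 at E10.5; these 3 were also named after their values were seen.

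**Figure D5:**
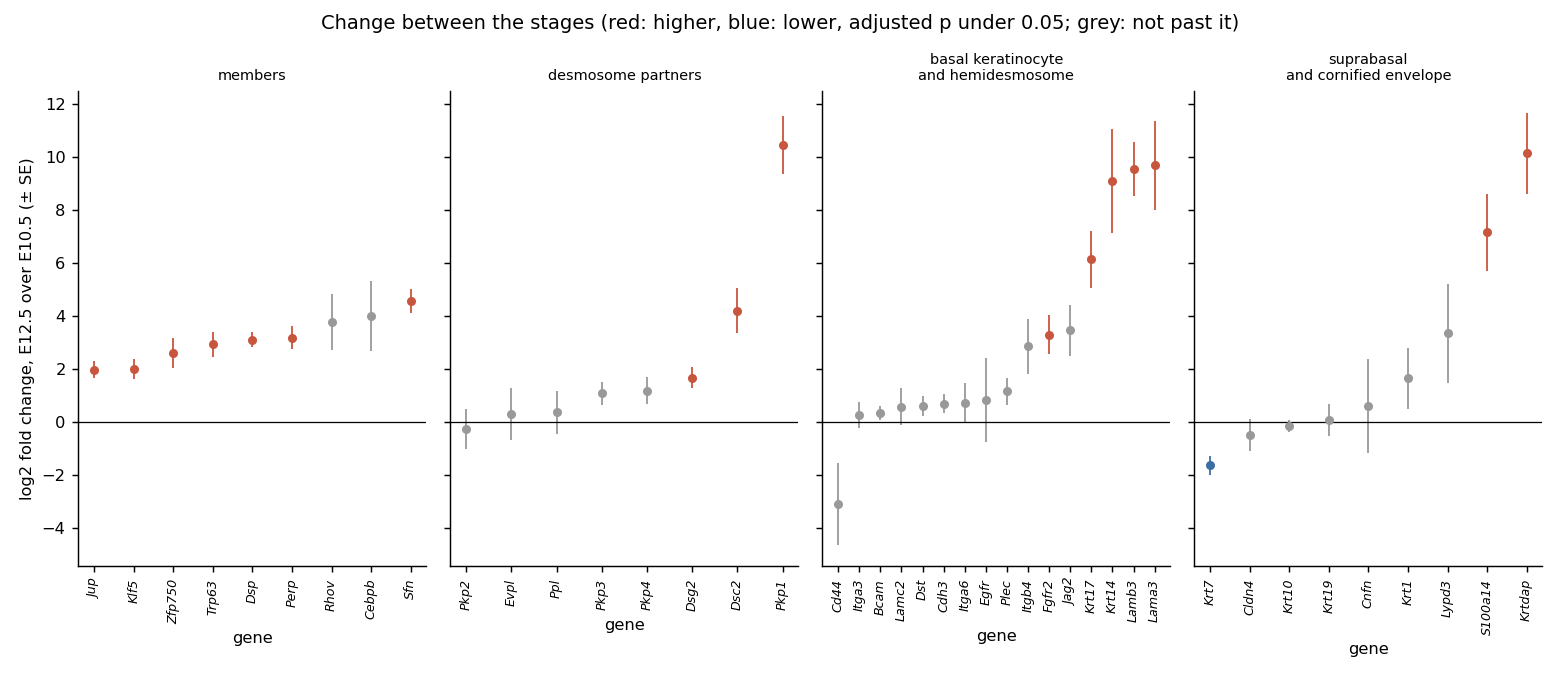
Log2 fold change of E12.5 over E10.5 with its SE (y axis, edgeR, 4 plates per stage) for the 9 tested members and the tested genes of 3 functional lists (desmosome partners, basal and hemidesmosome genes, suprabasal and cornified envelope genes) (x axis). Red points are higher and blue points lower at an adjusted p under 0.05, and 7 of the 9 members are red; for Krt14 and Lama3, with 0 reads at E10.5, the fitted value depends on the prior count.

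Between Krt5-rich and other E12.5 cells only Krt17 passed among the tested genes of these 4 lists (log2 change 3.90 ± 0.53, adjusted p = 0.0137, edgeR, sums of 4 plates per class). In this comparison 0.0715% of 9797 genes were called higher and 0.133% lower. Both classes of a plate come from the same library, and with the plate as a replicate block 13 genes were higher and 10 lower, in place of 7 and 13, with Krt17 still called (adjusted p = 0.00272, edgeR). Without the block Krt17 loses its call without any single plate (adjusted p from 0.0605 to 0.202, edgeR) and without cells with parathyroid markers (adjusted p = 0.146, edgeR). At an unadjusted p under 0.05 were 8.97% of all 9797 genes tested (2.05% higher and 6.92% lower), and 7 of 17 regulators (6 higher and Cebpd lower, at -6.29 with an adjusted p of 0.0977, edgeR), 1 of 8 desmosome partners, 1 of 15 basal genes and 4 of 8 suprabasal genes, among them, named after their values were seen, Ovol1 (2.81, adjusted p = 0.101, edgeR), Pkp1 (2.76, adjusted p = 0.115), Krt19 (4.73, adjusted p = 0.0977) and S100a14 (3.79, adjusted p = 0.0977). Of these suprabasal genes, Krt19 and Cldn4 (2.71, adjusted p = 0.24, edgeR) are named in the paper as markers of putative medullary progenitors. Both also enter the suprabasal median, so neither it nor the count is a measure of cornification alone. The paper also reports very high Krt17 in these putative progenitors, and among E12.5 thymic epithelial cells finds Notch1 mostly there. Notch1, named after its value was seen, is among the 7 regulators (2.61, adjusted p = 0.268, edgeR). The Krt17 call and the regulator count are therefore not measures of a squamous programme alone. The median log2 change was 1.003 for the regulators, 0.25 for the desmosome partners, 3.25 for the suprabasal genes and -0.61 for the basal genes, of which 6 of 15 were positive, beside -0.12 over all genes tested. Among the tested basal genes, the classes did not overlap for 5, namely Krt17 and, named after their values were seen, the growth factor receptor Egfr (log2 change 3.06) with higher values in Krt5-rich cells, and the integrin chains Itga6 (-3.06) and Itga3 (-2.71) and the cadherin Cdh3 (-1.18) with lower values. The last 4 were not called (adjusted p from 0.574 to 0.631, edgeR), and over all genes tested 1.45% were higher and 9.7% lower without overlap.

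Plate b, a further E12.5 plate read in 1 run and not part of the count table, held 87 cells that passed, with a median of 68744 reads. Trp63 was at 20.7 CPM there, Klf5 at 63.0, Zfp750 at 21.6, Dsp at 170, Jup at 63.0, Perp at 238, Sfn at 182 and Rhov at 20.5, each above every E10.5 plate, as was Cebpb at 1.38 CPM from 9 reads. For Rhov, 133 of the 134 reads came from 1 Krt5-rich cell that also met the neural and parathyroid rules, and the 83 cells that were not Krt5-rich were at 0.161 CPM, below E10.5 plates b, c and d. Of all tested genes, 30.8% were above every E10.5 plate in plate b, and members were in part chosen for their E12.5 level. Grhl3 had no read, which allows up to 0.46 CPM (3 reads). Of its cells, 4 were Krt5-rich and 83 were not. A molecule was counted in 1 of the 4 for Zfp750 and for Rhov, in 3 each for Dsp, Jup, Perp and Sfn, and in 0 for Trp63, Klf5 and Cebpb. In the 83 others it was counted in 4 cells for Zfp750, 0 for Rhov, 16 for Dsp, 18 for Jup, 14 for Perp, 50 for Sfn, 3 for Trp63, 7 for Klf5 and 3 for Cebpb. Correlations with Krt5 over the 87 cells were 0.31 for Jup, 0.30 for Rhov, 0.24 for Perp, 0.20 for Zfp750, 0.17 for Dsp, 0.16 for Trp63, 0.12 for Sfn, 0.09 for Klf5 and -0.06 for Cebpb. Those of Zfp750, Sfn, Dsp, Jup and Cebpb were below, and that of Trp63 above, the range over the 4 plates of the table.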

How the data were processed

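Read counts and molecule counts of single cells in 96-well plates (BD Precise WTA) were analysed. Per the file headers, the authors used the BD Precise WTA pipeline v2.0 with GRCm38.p6 and GENCODE vM18; the submitters' processing notes name FastQC, STAR, HTSeq and GRCm38.p5. The deposited read counts are raw, and the molecule counts were corrected by the authors' pipeline for errors. The table equals the sum of 2 runs per plate for all 54179 genes. Cells with 40000 to 400000 reads on protein-coding genes, 500 to 5000 features and at most 50% mitochondrial reads were kept; shares with a molecule use the first run.

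Reads were summed over the cells of a plate and tested with edgeR 4.0.16 (TMM, filterByExpr, robust quasi-likelihood test, limma 3.58.1, R 4.3.3), with Benjamini-Hochberg adjustment over all protein-coding genes tested; DESeq2 1.42.0 was an alternative. The fits were tested on simulated data. CPM in the text is not TMM-normalised unless called normalised. Krt5-rich means 1000 CPM of Krt5 or more. Shares have exact binomial 95% intervals, and the limit for 0 counts is 3 counts; both cover counting error only. Thinned values are expectations for 40000 reads or 1000 molecules, over the cells that reach that number.

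The members and gene lists were chosen with earlier results of these data known. Named were the 10 members, Krt5, Krt17 and Cldn4, relatives of the members, up to 4 called genes per list and direction, and the 3 nearest genes by correlation among genes read in at least 10% of E12.5 cells; others are marked. Plate letters are labels of separate plates in the stages; same-lettered plates had residual correlations of 0.058, -0.023 and 0.019 (letters a, c and d). The pairing of Krt5 classes comes from the shared plate, with residual correlations from 0.041 to 0.114. Positions are from GENCODE vM21 (GRCm38). Some results of the gene lists are not reported here. Whether counting used strand is not given in the sources used here.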

Additional observations from a re-analysis of the deposited data

Results flagged for a closer look

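The share of cells with a Rhov read was 20.2% in E12.5 plate e, apart from the other 3 plates of the stage (10.6% to 11.1%). The share with a Cebpb read was 5.56% in E12.5 plate c, apart from the others (16.9% to 18.8%). Of 40 groups of 4 plates examined for a plate that stands apart, 2 were found, and chance gives about 1 in 20. In E12.5 plate b, which entered the stage test only as an alternative, 9 of the 10 genes had a higher CPM than every E10.5 plate, as had 30.8% of all 11499 genes tested; members were in part chosen for their E12.5 level, and 133 of the 134 Rhov reads came from 1 cell.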

How the results depend on the processing

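In all 17 alternatives the 9 tested members were higher at E12.5, where they could be fitted (15 for Cebpb). Perp, Sfn and Dsp were called in 17 of 17, Jup in 16, Trp63 and Klf5 in 15, Zfp750 in 13, Rhov in 3 and Cebpb in 1 of 15. Without 1 plate at a time, 6 to 8 members were called, 321 to 493 genes were higher and 170 to 322 lower, with 170 lower without E10.5 plate c and 176 without E10.5 plate b. DESeq2 called 724 genes higher and 545 lower, against 437 and 281. The fit with the plate letter as a replicate block could use only the 3 letters found in both stages (a, c and d). It left out E10.5 plate b and E12.5 plate e. In it 133 genes were higher and 82 lower, and 3 members (Perp, Sfn and Dsp) were called. The letters share only a name, so the block is no pairing. The block and the plates left out both leave fewer degrees of freedom. Without cells bearing neural or parathyroid markers, 205 were higher and 113 lower, from fewer cells.

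Between Krt5-rich and other cells, 7 genes were higher and 13 lower. DESeq2 called 122 and 413, the plate as a replicate block 13 higher, molecules 36 higher, and a limit of 2000 CPM 3 higher. With the limit of 2000 CPM, plate d had too few cells for a Krt5-rich sum. Without cells with parathyroid markers, 0 were higher and 0 lower in edgeR. Without 1 plate at a time, 0 were higher and 3 to 5 lower in edgeR. The cause was not tested. Of 20 shares of cells with a read (10 genes, 2 stages), 4 moved by more than the plate SD when thinned to 40000 reads. With molecules thinned to 1000 in place of reads, which changes the measure and the depth together, 18 of 20 did. Correlations with Krt5 stayed within the range of the 4 plates of the table for all 10 genes with a pseudocount of 1 CPM and without centring. Low molecule depth in E10.5 plate a (median 1305 in the first run) limits shares there.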
